A study of Mus musculus with 4 samples.

Results

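The matrix proteases and their inhibitors are 80 genes of the Mmp, Adam, Adamts and Timp families, picked by gene symbol. They come from the 25177 symbols measured in nuclear RNA of NIH-3T3, a long-established fibroblast line from mouse embryos. The set was chosen with earlier results of these data known. The cells carried H2B-mCherry, the rtTA3G transactivator and a CDX2 transgene under the TRE3G promoter, in both groups. CDX2 is a homeobox transcription factor of the intestine and trophectoderm. The compared groups were doxycycline-treated cells (500 ng/ml, a figure that another label gives per µl, for 6 h, 2 libraries) and cells that received solvent alone for 6 h (2 libraries), each library from 500000 cells. The values come from the authors' deposited table, which lists 1 fold change for each transcript and nothing for single libraries, so neither the spread within a group nor the overlap of the groups can be shown. The labels do not say that the libraries of a group came from separate cultures, so the errors may be technical.

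Matrix metalloproteinases (MMPs) and the related ADAM and ADAMTS enzymes hold a zinc ion in the active site and are made as inactive precursors. MMPs cut collagens and other matrix proteins, ADAMs release the outer parts of membrane proteins, and ADAMTS enzymes cut proteoglycans or mature procollagens. TIMPs are secreted inhibitors that block the active site, and fibroblasts are a main source of both enzymes and inhibitors.

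With doxycycline, 7 of the 30 tested members fell and 4 rose, and the largest changes in both directions were in the ADAMTS enzymes that cut proteoglycans: Adamts4 rose 2.12-fold whereas Adamts5 fell 1.83-fold and Adamts1 fell 1.61-fold in the authors' deposited table. Mmp9, Adam22 and Mmp19 were the other members that rose, and Timp3, Timp2, Mmp2, Adam19 and Mmp28 the others that fell. Counts per library are inferred from the table's lowest values and rest on 0.5 having been added to each; had 1 been added, all counts and the depth would be 2 times those given, with CPM and fold changes as they are. Genes counted as tested if their most expressed row averaged at least 10 counts (geometric mean over the libraries), and as called if the authors' deposited table gave them an adjusted p below 0.05. By that rule 36.7% of the tested members were called, beside 24.7% of all 12355 genes tested. Rises made up 11.3% and falls 13.4% of all genes tested. The median log2 fold change of the tested members was -0.11, beside -0.0011 over all genes tested, and 22 of the 30 lay below 0, beside 50.3% of all genes tested. Called changes of at least 1.5-fold were found for 5 of the 30 tested members, beside 5.65% of all genes tested. Those of at least 2-fold were found for 1 member, beside 1.68% of all genes tested.

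Cdx2 itself stood at 612 CPM with doxycycline and 4.96 CPM without, from the mean level and fold change of the authors' deposited table. All 8 fibroblast markers examined passed the count floor, and 6 of them fell, beside 13.4% of all genes tested. The falls ran from Fn1 at -0.26 to Pdgfrb at -0.81 on the log2 scale in the authors' deposited table. Thy1 (0.30, adjusted p 0.0962) and Sparc (-0.07, adjusted p 0.551) were not called there. The summed level of the 8 markers was 6001 CPM with doxycycline and 7164 CPM with solvent. Its part in the falls of matrix protease genes was not tested. Epithelial markers (1 of 6 tested, Cdh1, which fell) summed to 0.677 CPM with doxycycline and 1.5 CPM with solvent, of which Cdh1 made up 0.464 CPM with doxycycline and 1.43 CPM with solvent. Under the floor, Krt19 (1.18 counts as a geometric mean) was higher with doxycycline, at a log2 fold change of 3.60 ± 0.62 (adjusted p 2.07e-07), and Ocln stood at 1.75 ± 0.75 (adjusted p 0.105), by the authors' deposited table. Haematopoietic markers (1 of 5 tested) summed to 0.951 CPM with doxycycline and 1.12 CPM with solvent. Krt18, Adgre1 and Cd3e are among those listed without reads. Endothelial markers (1 of 4 tested) summed to 3.95 CPM with doxycycline and 4.62 CPM with solvent, and neural ones (0 of 4 tested) to 0.0674 CPM with doxycycline and 0.11 CPM with solvent. In bulk RNA, fewer cells with a transcript and less of it per cell cannot be told apart.

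**Figure D1:**
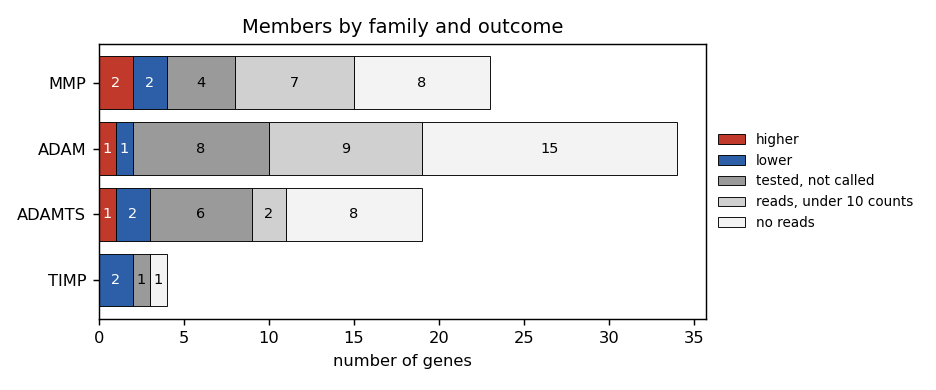
Members by family (rows) and number of genes (horizontal axis), split into those higher with doxycycline, lower with doxycycline, tested and not called, with reads but under 10 counts, and without reads. Of 34 ADAM genes 10 were tested, of 23 MMP genes 8, of 19 ADAMTS genes 9 and of 4 TIMP genes 3.

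**Figure D2:**
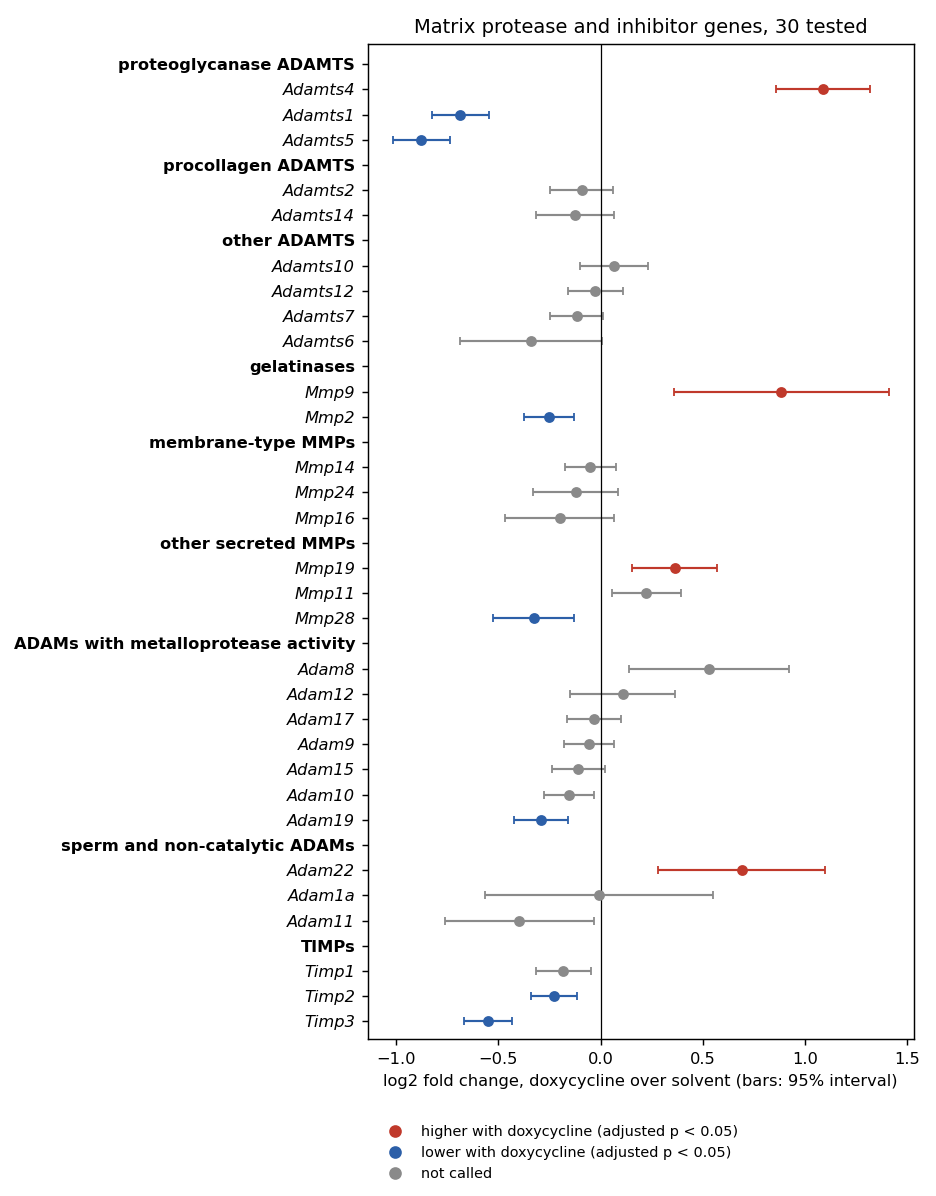
Log2 fold change (doxycycline over solvent) of the 30 tested members by class, with 95% intervals from the authors' deposited table. Adamts4 (1.09) lies farthest to the right and Adamts5 (-0.88) farthest to the left, within the same class.

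The 3 tested genes classed here as proteoglycan-cutting ADAMTS enzymes, which act on aggrecan and versican, were all called, and in opposite directions. The share called over all genes tested was 24.7%. Adamts5 (NM_011782), the main aggrecanase of mouse cartilage, lies at mm10 chr16:85858157-85901125 and stood at 26.2 CPM with doxycycline and 48.0 CPM with solvent, from the mean level and fold change of the authors' deposited table. Its log2 fold change was -0.88 ± 0.072 (± standard error), with an adjusted p of 4.44e-32, by the authors' deposited table. Adamts1 (NM_009621, mm10 chr16:85793828-85803113), which cuts versican and aggrecan, stood at 31.7 CPM with doxycycline and 51.0 CPM with solvent, a log2 fold change of -0.68 ± 0.070 (adjusted p 2.73e-20), by the authors' deposited table. Adamts4 (NM_172845, mm10 chr1:171250129-171262267), the other classical aggrecanase, stood at 7.13 CPM with doxycycline and 3.36 CPM with solvent, a log2 fold change of 1.09 ± 0.12 (adjusted p 1.07e-18), by the authors' deposited table. The fold changes of Adamts4 and Adamts5 differed by 1.962 on the log2 scale (95% interval 1.69 to 2.23), with their errors taken as independent. Adamts1 and Adamts5 differed by 0.19, with an interval of -0.0062 to 0.39 that includes 0.

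Adamts1 and Adamts5 are neighbours on the same strand, 55043 bases apart, with 4930556C24Rik between them, which is listed without reads in the authors' deposited table. Per kilobase of exon, Adamts1 had 6.52 CPM with doxycycline and 10.5 CPM with solvent, Adamts5 had 3.24 CPM with doxycycline and 5.94 CPM with solvent, and Adamts4 had 1.13 CPM with doxycycline and 0.534 CPM with solvent, with Adamts4 the lowest of the 3 in both groups. Neither Adamts1 nor Adamts5 shares exon bases with another gene in GENCODE M21.

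Promoters were looked up for all members in a RefSeq table of GRCm38.p6, 250 bases before to 50 after each start site, which held 50 of the 80 members and 6 of the 11 called ones. The first 3 printed here belong to the called members with the largest changes that the table holds: Adamts1 and Timp3, which fell, and Adam22, which rose. Each was searched on both strands for TTTATNG, a form of the CDX motif, and for TGANTCA, the AP-1 motif, and capitals mark the matches.
Adamts1 (chr16:85803064-85803363, minus strand): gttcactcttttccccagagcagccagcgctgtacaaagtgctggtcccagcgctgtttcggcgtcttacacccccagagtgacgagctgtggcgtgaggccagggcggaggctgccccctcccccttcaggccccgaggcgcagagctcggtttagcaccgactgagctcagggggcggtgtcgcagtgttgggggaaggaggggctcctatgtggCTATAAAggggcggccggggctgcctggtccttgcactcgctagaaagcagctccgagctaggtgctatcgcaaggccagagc
Timp3 (chr10:86300162-86300461, plus strand): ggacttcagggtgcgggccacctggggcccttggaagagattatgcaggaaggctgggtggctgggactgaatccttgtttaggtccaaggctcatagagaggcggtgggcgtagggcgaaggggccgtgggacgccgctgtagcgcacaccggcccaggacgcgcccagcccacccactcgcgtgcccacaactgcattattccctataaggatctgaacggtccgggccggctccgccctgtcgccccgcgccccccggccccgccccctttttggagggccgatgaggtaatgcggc
Adam22 (chr5:8368111-8368410, minus strand): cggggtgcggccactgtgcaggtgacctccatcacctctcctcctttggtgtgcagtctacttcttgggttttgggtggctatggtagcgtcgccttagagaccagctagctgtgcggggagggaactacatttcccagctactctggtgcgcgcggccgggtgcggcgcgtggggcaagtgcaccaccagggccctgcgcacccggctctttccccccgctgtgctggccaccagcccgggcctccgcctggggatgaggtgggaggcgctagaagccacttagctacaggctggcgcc
The start site of each equals that of its row in the authors' deposited table. The promoter of Adamts1 held 1 match, to the CDX motif read on the opposite strand, which begins 33 bases before the start site and also spells a TATA box. Those of Timp3 and Adam22 held neither motif. The CDX motif was in 6.66% of the promoters of all genes tested and the AP-1 motif in 5.11%, and each was in 1 of the 20 promoters of tested members (5.0%). Among the 18 tested members in the table, Adamts1 was the 1 gene with a CDX match and Adam19, in 1 of its 3 promoters, the 1 gene with an AP-1 match.

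The remaining 6 tested ADAMTS genes were not called, beside 24.7% called over all genes tested. Adamts2 and Adamts14, which remove the N-terminal propeptides of fibrillar procollagens, had log2 fold changes of -0.09 ± 0.079 and -0.13 ± 0.097 (adjusted p 0.628 and 0.536), by the authors' deposited table. Adamts7 and Adamts12, enzymes known to cut cartilage oligomeric matrix protein, stood at -0.12 ± 0.066 and -0.03 ± 0.069 (adjusted p 0.298 and 0.873), by the authors' deposited table. The interval of Adamts12, from -0.16 to 0.11, leaves out changes of the size seen for Adamts1. Adamts10, linked to fibrillin, and its relative Adamts6 stood at 0.07 ± 0.086 and -0.34 ± 0.18 (adjusted p 0.858 and 0.236), by the authors' deposited table. Adamts6 had only 1.32 CPM as a mean level, and a change of 0.47 on the log2 scale would have been needed for a call at its error.

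**Figure D3:**
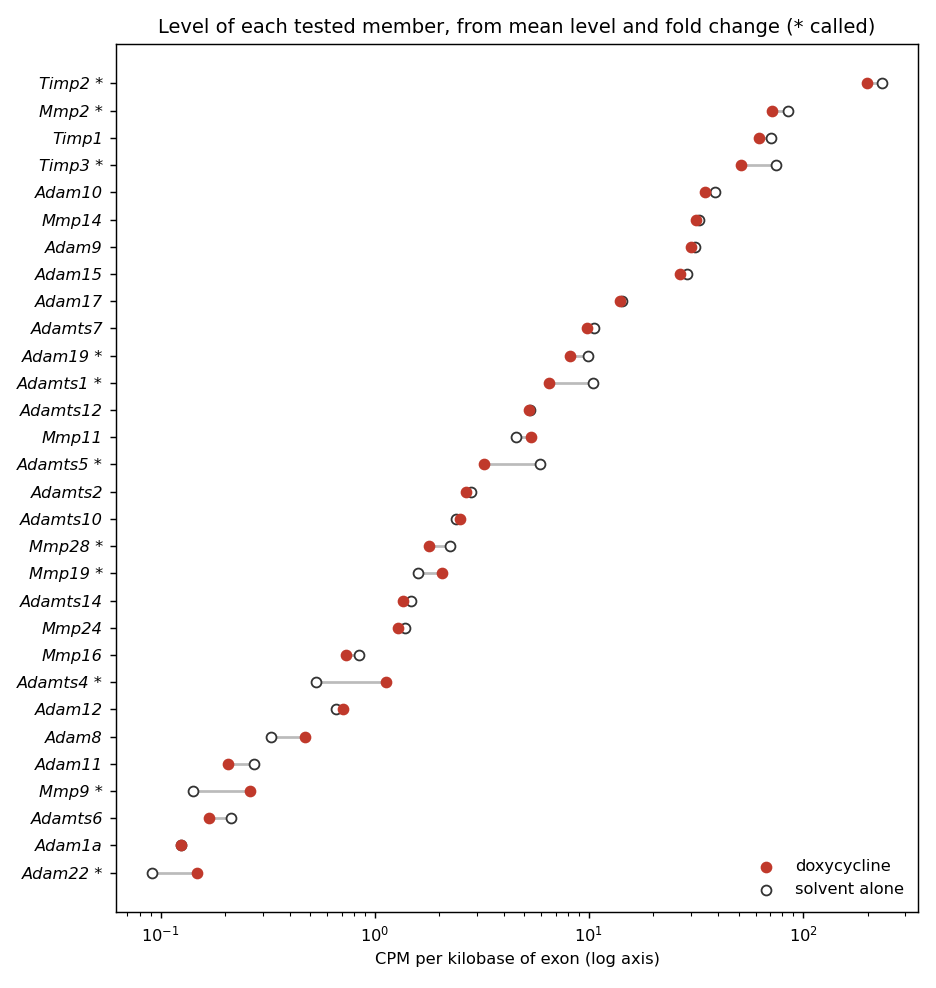
CPM per kilobase of exon on a log axis (horizontal) for each tested member (rows, asterisk where called) with doxycycline (filled) and with solvent alone (open), worked out from the mean level and fold change of the authors' deposited table. Levels run from Timp2 at the top to Adam22 at the bottom, and the points of Adamts4, Mmp9, Adamts5, Adam22, Adamts1 and Timp3 lie farthest apart.

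The gelatinases, which cut denatured collagen and basement membrane collagen, moved in opposite directions as well. Mmp2 (NM_008610, mm10 chr8:92827297-92853421), the most abundant protease gene of the families, stood at 217 CPM with doxycycline and 259 CPM with solvent, a log2 fold change of -0.25 ± 0.062 (adjusted p 0.000625), by the authors' deposited table. Mmp9 (NM_013599, mm10 chr2:164948219-164955850) stood at 0.823 CPM with doxycycline and 0.446 CPM with solvent, a log2 fold change of 0.88 ± 0.27 (adjusted p 0.0092), by the authors' deposited table. The fold change of Mmp9 exceeded that of Mmp2 by 1.13 (95% interval 0.60 to 1.67). Mmp9 rests on 27.2 counts in each library as a geometric mean, and per kilobase its mean level was 0.192 CPM, against 77.8 CPM for Mmp2.

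Among other secreted MMPs, Mmp19 rose and Mmp28, also called epilysin, fell. Mmp19 (mm10 chr10:128790955-128800827) stood at 6.97 CPM with doxycycline and 5.43 CPM with solvent, a log2 fold change of 0.36 ± 0.11 (adjusted p 0.00605), by the authors' deposited table. Mmp28 (mm10 chr11:83440768-83463040) stood at 6.28 CPM with doxycycline and 7.87 CPM with solvent, a log2 fold change of -0.33 ± 0.10 (adjusted p 0.0116), by the authors' deposited table. Both share exon bases with a gene on the opposite strand that moved the same way: 22.6% of the exon bases of Mmp19 with Tmem198b (0.32 ± 0.079, adjusted p 0.000856) and 12.1% of those of Mmp28 with 1700020L24Rik (-0.53 ± 0.19, adjusted p 0.036), by the authors' deposited table. The library kit marks strand. How strand was set when reads were counted is not known here, and the part of such reads in either value was not tested. Mmp11, stromelysin 3, stood at 0.22 ± 0.086 in its highest row (adjusted p 0.0603), and its shorter transcript passed at 0.24 (adjusted p 0.0489), by the authors' deposited table.

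The 3 tested membrane-anchored MMPs were not called, beside 24.7% called over all genes tested. Mmp14, the main pericellular collagenase and an activator of the Mmp2 precursor, stood at 119 CPM with doxycycline and 124 CPM with solvent, a log2 fold change of -0.05 ± 0.064 (adjusted p 0.857, 95% interval -0.17 to 0.07), by the authors' deposited table. Mmp24 (-0.12 ± 0.11, adjusted p 0.623) and Mmp16 (-0.20 ± 0.14, adjusted p 0.444) were lower in level, at 5.72 and 3.59 CPM as means, in the authors' deposited table. At their errors, log2 changes of 0.28 (Mmp24) and 0.36 (Mmp16) would have been needed for a call.

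Of the 10 tested ADAM genes 2 were called (20%), beside 24.7% of all genes tested. Of 7 tested ADAMs with protease activity, Adam19 was the 1 that was called, at 51.7 CPM with doxycycline and 63.3 CPM with solvent, a log2 fold change of -0.29 ± 0.067 (adjusted p 0.000222), by the authors' deposited table. Adam19, also called meltrin beta, is known for its role in heart development. All 4 of its transcript rows were called in the authors' deposited table. Adam17, which releases TNF and many growth factors, stood at 61.7 CPM with doxycycline and 63.1 CPM with solvent (-0.03 ± 0.067, adjusted p 0.873, 95% interval -0.16 to 0.10), by the authors' deposited table. Adam10, the protease that cuts Notch receptors after ligand binding, stood at 160 CPM with doxycycline and 178 CPM with solvent (-0.15 ± 0.063, adjusted p 0.0828), by the authors' deposited table. Adam9 (-0.06 ± 0.063, adjusted p 0.813), Adam15 (-0.11 ± 0.065, adjusted p 0.351) and Adam12 (0.11 ± 0.13, adjusted p 0.836) did not pass, by the authors' deposited table. Adam8, known from leukocytes, stood at 1.46 CPM with doxycycline and 1.01 CPM with solvent, 0.53 ± 0.20 on the log2 scale, and just missed the threshold (adjusted p 0.0517), by the authors' deposited table.

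Adam22 encodes a membrane protein without protease activity that serves as a receptor for LGI1 in the brain. It stood at 1.34 CPM with doxycycline and 0.831 CPM with solvent, a log2 fold change of 0.69 ± 0.21 (adjusted p 0.00902, mean of 47.7 counts), by the authors' deposited table. Its second, shorter row held almost no reads. Adam11, another ADAM without protease activity, stood at -0.40 ± 0.19 (adjusted p 0.158) and the sperm gene Adam1a at -0.01 ± 0.28 (adjusted p 0.986), by the authors' deposited table.

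Of the inhibitors, Timp3 and Timp2 fell. Timp3 (NM_011595, mm10 chr10:86300412-86349505), the inhibitor that binds to the matrix and also blocks ADAM17 and aggrecanases, stood at 239 CPM with doxycycline and 349 CPM with solvent in the authors' deposited table (log2 fold change -0.55 ± 0.061, adjusted p 9.63e-18), which is 31.7% less, or a 1.46-fold fall (95% interval 1.35 to 1.59). Timp2 (NM_011594, mm10 chr11:118301061-118355411), which also takes part in the activation of the Mmp2 precursor by Mmp14, stood at 720 CPM with doxycycline and 843 CPM with solvent, a log2 fold change of -0.23 ± 0.058 (adjusted p 0.00103), by the authors' deposited table. With the trend of fold change against expression level removed from the authors' deposited table, Timp2 stood at -0.10 and its call was lost (adjusted p 0.22, over all alternatives 0.000612 to 0.44), and Mmp2 stood at -0.16 (adjusted p 0.0344, over all alternatives 0.000374 to 0.407). Timp1 stood at 54.6 CPM with doxycycline and 61.9 CPM with solvent, -0.18 ± 0.069 in its highest row (adjusted p 0.0557) and -0.19 in the row that passed with the smallest p (adjusted p 0.0486), by the authors' deposited table. The fold change of Timp3 lay below that of Timp2 by 0.32 on the log2 scale (difference -0.32, 95% interval -0.49 to -0.16) and below that of Timp1 by 0.37 (difference -0.37, 95% interval -0.55 to -0.19).

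Timp1 and Timp3 lie within spans of synapsin genes on the opposite strand, Syn1 and Syn3, and 21.4% of the annotated exon bases of Timp3 lie opposite exons of Syn3. Syn3 stood at 0.754 CPM and -0.31 ± 0.23 (adjusted p 0.517), against 289 CPM for the mean of Timp3, in the authors' deposited table. Per kilobase of exon, Timp2 (216 CPM as a mean of both groups), Mmp2 (77.8), Timp1 (66.1), Timp3 (61.8) and Adam10 (36.8) were the 5 highest members, and together they made up 73.9% of the summed level of the 30. Mmp14, Adam9 and Adam15 came next, at 32.1, 30.7 and 27.7 CPM per kilobase. Errors of these levels cannot be given without values per library, so neighbours in this order cannot be told apart by a test.

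**Figure D4:**
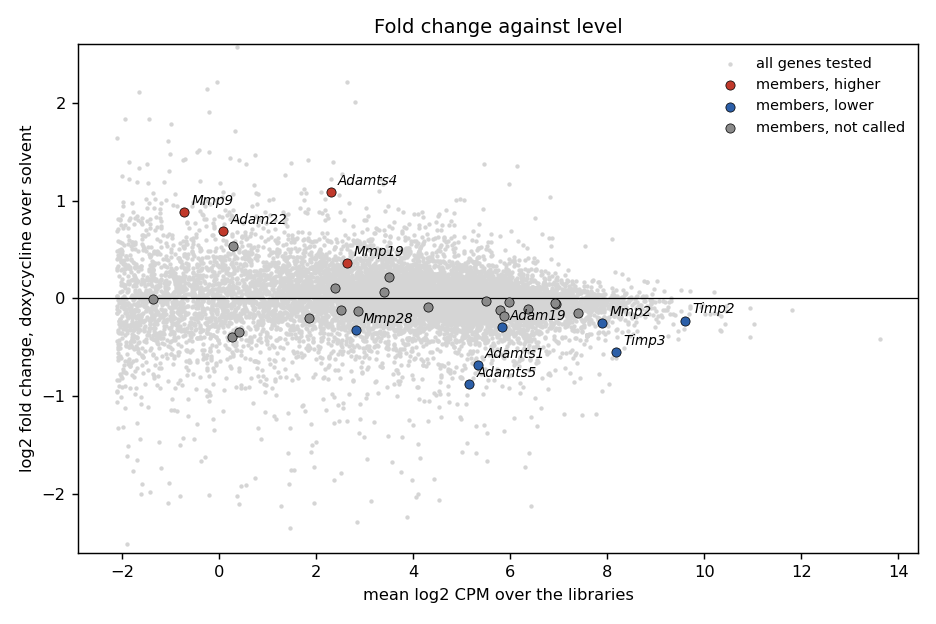
Log2 fold change (vertical) against mean log2 CPM (horizontal) for all genes tested (grey) and the 30 tested members (coloured by call). Rises among members (Mmp9, Adam22, Adamts4, Mmp19) lie at low to middle levels and falls at middle to high levels, and 3 genes beyond 2.6 on the vertical axis, Cdx2 among them, are not drawn.

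The other 50 members were not tested: 32 are listed without reads in any library and 18 had reads under the floor. Collagenase and stromelysin genes are among them. A cluster of 10 Mmp genes on chromosome 9 (mm10 chr9:7272514-7699585) held almost no reads, and 7 of its genes are listed without any in the authors' deposited table: Mmp1a, Mmp7, Mmp8, Mmp10, Mmp12, Mmp20 and Mmp27. Of the rest of the cluster, Mmp13 (collagenase 3) held the equivalent of 2 counts in 1 doxycycline library, Mmp3 (stromelysin 1) 1 count in 1 solvent library and Mmp1b 0.5 counts in 1 solvent library, as worked out from the mean level and sign in the authors' deposited table. None of the 3 had an adjusted p under 0.05 there. The depth was about 4.57e+07 effective counts per library. At their errors, log2 changes of 2.05 (Mmp13), 2.15 (Mmp3) and 2.24 (Mmp1b) would have been needed for a call, so smaller changes were not detectable. Timp4, Mmp25, Adamts3, Adamts8, Adamts9, Adam2, Adam23 and Adam28 are also listed without reads. So are 10 ADAM genes of chromosome 8 (Adam18, Adam20, Adam24, Adam25, Adam26a, Adam26b, Adam29, Adam34, Adam34l and Adam39), several of them known from testis. The remaining 7 without reads are Adam6a, Adam6b, Adamts13, Adamts16, Adamts17, Adamts18 and Adamts19. Adam4 lay just under the floor of 10 counts, at a geometric mean of 8.96 counts, and Adam1a lay over it, at 17.1 counts. Of the 18 members under the floor, Mmp21 had the smallest p (log2 fold change -1.61 ± 0.66, adjusted p 0.0831), by the authors' deposited table, and none was called. The others, from most to fewest counts, were Adam21, Mmp23, Adam32, Mmp15, Adamts20, Adam30, Mmp17, Adam33, Adam1b, Adam3, Adam5, Adam7 and Adamts15, with adjusted p between 0.145 and 0.873 in the authors' deposited table.

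The promoters of all 10 genes of the chromosome 9 cluster are in the RefSeq table. Matches to the AP-1 motif were present in 8 genes (Mmp1a, Mmp1b, Mmp3, Mmp7, Mmp10, Mmp12, Mmp13 and Mmp20) and to the CDX motif in 5 (Mmp3, Mmp7, Mmp10, Mmp13 and Mmp20). A gene was counted if any of its promoters matched, and Mmp7 and Mmp12 have more than a single promoter. Of all 32851 promoters, counted singly, 7.81% (AP-1) and 10.9% (CDX) held a match, so the units differ. Those of Mmp13 and Mmp3, chosen after the values were seen because these are known collagenase and stromelysin genes with a read, are printed with the same capitals.
Mmp13 (chr9:7272264-7272563, plus strand): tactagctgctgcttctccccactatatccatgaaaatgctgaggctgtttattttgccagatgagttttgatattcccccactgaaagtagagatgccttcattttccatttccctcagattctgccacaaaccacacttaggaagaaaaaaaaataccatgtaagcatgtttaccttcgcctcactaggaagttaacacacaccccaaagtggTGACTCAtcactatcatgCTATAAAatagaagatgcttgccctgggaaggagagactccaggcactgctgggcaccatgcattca
Mmp3 (chr9:7445572-7445871, plus strand): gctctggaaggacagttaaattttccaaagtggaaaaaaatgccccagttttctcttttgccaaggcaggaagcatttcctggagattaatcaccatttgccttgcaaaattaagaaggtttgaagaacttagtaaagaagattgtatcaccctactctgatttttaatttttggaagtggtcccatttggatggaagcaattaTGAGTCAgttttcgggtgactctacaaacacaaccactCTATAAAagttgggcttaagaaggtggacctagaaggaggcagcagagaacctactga
In each, the AP-1 match stands first, 35 and 46 bases before the start site, and the CDX match follows over a TATA box, 17 and 8 bases before it. GC made up 43.7% of the bases of Mmp13 and 40.0% of those of Mmp3, against 64.7%, 67.0% and 66.3% for Adamts1, Timp3 and Adam22. A match describes letters and does not show that a factor binds there.

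Other genes of the protease system were read from a list of 79, of which 41 were tested, and 14 fell and 4 rose, or 43.9% called beside 24.7% of all genes tested. In the plasminogen system, which activates MMP precursors, the urokinase gene Plau (-0.50 ± 0.12) and its receptor Plaur (-1.08 ± 0.073) fell in the authors' deposited table. Plaur stood at 20.6 CPM with doxycycline and 43.6 CPM with solvent, by the authors' deposited table. Centred on ribosomal protein genes, the split of the wider list was 7 higher and 14 lower, with 29.1% of all genes tested called. The tissue activator Plat stood at 0.18 ± 0.076 (adjusted p 0.0959), by the authors' deposited table.

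Partners of the sheddases were called in both directions, 4 of the 7 tested (57.1%), beside 24.7% of all genes tested. Of 7 tested, Tspan15 (-1.90 ± 0.28), Tspan14 (-0.48 ± 0.070) and Tspan17 (-0.26 ± 0.077), tetraspanins that accompany Adam10, fell, and Frmd8 (0.22 ± 0.071), a partner of the Adam17 cofactor iRhom, rose in the authors' deposited table. Tspan15 rests on a mean of 14.6 counts, at 0.171 CPM with doxycycline and 0.636 CPM with solvent, by the authors' deposited table. Of 8 listed EGF family ligands that ADAMs release, 4 were tested and all 4 were called, beside 24.7% of all genes tested. Neuregulin 1 (Nrg1, -1.85 ± 0.084), epiregulin (Ereg, -0.68 ± 0.074) and betacellulin (Btc, -0.38 ± 0.088) fell, and Hbegf rose (0.24 ± 0.078), in the authors' deposited table.

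The remaining lists held 1 called gene each, of 3 to 6 tested, except 3 of 7 among other matrix proteases. The share over all genes tested was 24.7%. Lrp1, a receptor that takes up proteases and their inhibitor complexes, fell (-0.34 ± 0.060), as did the ADAMTS-like gene Adamtsl5 (-0.41 ± 0.069), the convertase Pcsk4 (-0.44 ± 0.11) and the collagen receptor Mrc2 (-0.24 ± 0.065) in the authors' deposited table. Of 7 serine, cysteine and aspartic proteases, Htra1 (-0.91 ± 0.14) and Prss23 (-0.51 ± 0.066) fell and cathepsin B rose (Ctsb, 0.18 ± 0.061) in the authors' deposited table. Furin, which activates many members from their precursors, stood at 0.08 ± 0.064 (adjusted p 0.573), and the membrane inhibitor Reck at 0.09 ± 0.11 (adjusted p 0.85), by the authors' deposited table. Pcsk7 (0.18 ± 0.079, adjusted p 0.113), the procollagen protease Bmp1 (0.12 ± 0.069, adjusted p 0.294) and the hyaluronan receptor Cd44 (-0.16 ± 0.060, adjusted p 0.0592) did not pass there either, per the authors' deposited table.

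**Figure D5:**
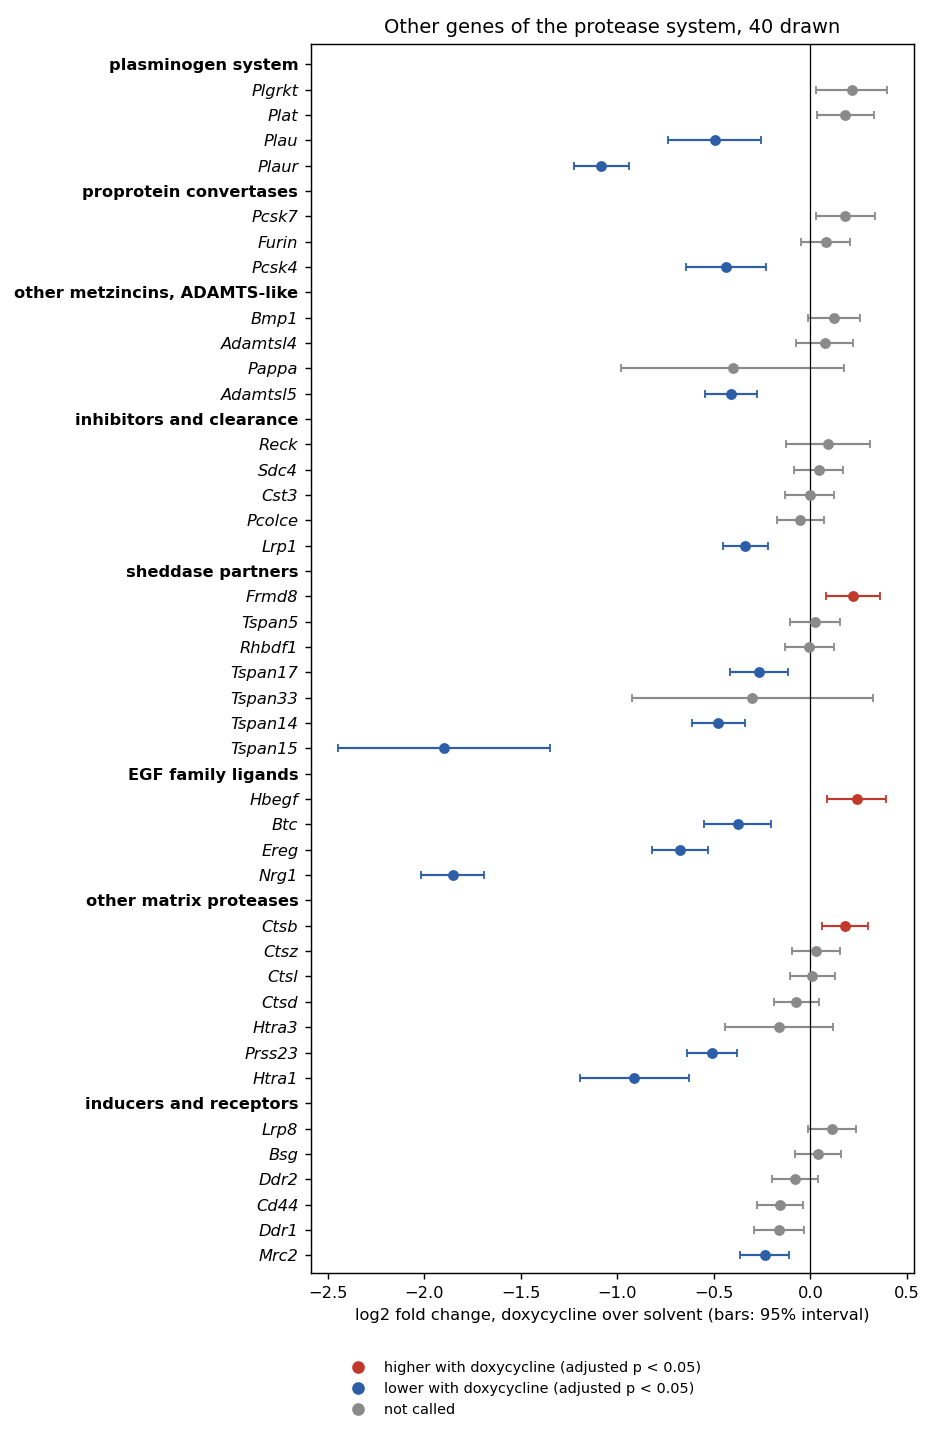
Log2 fold change (doxycycline over solvent) of 40 tested genes of the wider protease system by list, with 95% intervals. Tspan15 (-1.90) and Nrg1 (-1.85) lie farthest to the left, and Hbegf (0.24) has the highest value drawn.

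The t values of the authors' deposited table spread more widely over all genes tested than a standard normal, with a robust SD of 2.08. When every standard error was multiplied by that figure, Adamts1, Adamts4, Adamts5 and Timp3 were still called and the other 7 were not. Of all genes tested, 4.66% were still called.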

How the data were processed

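Nuclear RNA was sequenced in 4 libraries, grouped by their titles. The authors deposited 1 table for the comparison. Per the file headers it gives limma's log2 fold change, mean log2 expression, moderated t score, p-value and adjusted p-value for each of 40739 transcripts. The deposited columns also give other values, the start, end and exon length in bases. Tools named without role or order, per the submitters' processing notes, are limma, edgeR, HOMER 4.10, Picard, SAMtools 1.10 and STAR 2.7.1a, with build mm10. Filters and the strand setting are not known here.

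The table holds no counts per library, so the test used is the authors' own limma test, and a count model was not run. Each gene is represented by its row with the highest mean. The standard error is log2 fold change divided by t, and intervals at 95% assume normal errors. Since limma's t is moderated, each error draws on variance over many genes. It does not measure the spread of that gene's own libraries alone. Counts and CPM are geometric means, worked out on the assumption that 0.5 was added to each count. The table's lowest rows lie in whole multiples under it (100% of 3285 rows, tolerance 0.01), and 58.1% of the multiples are even. That pattern would come from steps of 0.5 counts, or from whole counts with 1 added, which would make every count and the depth 2 times those given. Depth is known only as about 4.57e+07 effective counts per library. CPM of a group is the mean level moved up or down by 0.5 times the log2 fold change, which takes the libraries as equally weighted. Rows without reads share a log2 fold change of -0.21.

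Exon overlaps came from GENCODE M21. No protein sequences were used. Scripts were tested on simulated data (Python 3.11.15, pandas 2.3.3, statsmodels 0.14.6). Members, gene lists and tests were chosen with earlier results of these data known. The rule for named genes takes every tested member, members under the floor with any read, Cdx2, up to 4 tested genes with the smallest p in each list of the wider system, and the promoters of up to 2 called members per direction. The promoters of Mmp13 and Mmp3 and the gene Adamtsl3 were chosen outside it, after their values were seen. Alternatives changed the floor, the row taken per gene, the adjustment, the centring, the trend with level, the errors and the treatment of overlapping exons. Some genes that enter the counts are not reported here by name.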

Additional observations from a re-analysis of the deposited data

How the results depend on the processing

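Over 12 alternatives, Adamts1 and Adamts5 stayed called in all 12, and Adamts4 and Timp3 in all 11 that kept them. Widened standard errors left 4 members called, 1 higher and 3 lower, and 7 genes of the wider list, 1 higher and 6 lower. Of all genes tested, 4.66% were then called. A floor of 50 counts left 2 rises, since Adam22 and Mmp9 were then not tested. It left 9 of 27 members called, beside 26.5% of all genes tested. Leaving out the 10 members whose exons overlap another gene left 6 of 20 called, 2 higher and 4 lower. The share over all genes tested was then 24.6%. With 0.01 as the threshold, 1 gene of the wider list was higher, and 17.9% of all genes tested were called. Adjusting over the tested genes alone called 14 of 30 members, adding Adam8, Mmp11 and Timp1, beside 27.5% of all genes tested. Centring on ribosomal protein genes called 29.1% of all genes tested. It gave 7 rises and 14 falls in the wider list, beside 4 and 14. It turned the uncalled values of Adam17 (0.011), Adam1a (0.036) and Adamts12 (0.019) above 0. Removing the trend with level did so for Adam17 (0.0029), Adam1a (0.039), Adam9 (0.010) and Mmp14 (0.016). The cause was not tested. Other settings kept the counts of calls within 1.5 times. No paired analysis was possible because the authors' deposited table holds no values per library, and for the same reason single libraries could not be left out and edgeR and DESeq2 were not run. Members under 10 counts could not show a change of moderate size at this depth.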

Other observations

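Adamtsl3, an ADAMTS-like gene of the wider list, lay under the floor at a geometric mean of 3.42 counts per library, with a log2 fold change of -1.66 ± 0.45 (adjusted p 0.0027) in the authors' deposited table. Its level corresponds to 0.0483 CPM with doxycycline and 0.153 CPM with solvent. Of the 15 tested members with more than 1 transcript over the floor, all 15 had rows of 1 sign, and the rows of 2 (Timp1 and Mmp11) fell on both sides of the threshold.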
